A study of Canis lupus familiaris with 4 samples.

Results

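Syndecans and glypicans are the main families of cell-surface proteoglycans that carry heparan sulfate. Their 10 genes, SDC1 to SDC4 and GPC1 to GPC6, were followed in stromal cell cultures from dog fat. The members were chosen by gene symbol, and all 10 were found among the 30951 Ensembl genes of the deposited table, each in a single row. The cultures were adipose-derived mesenchymal stromal cells (MSCs), adherent matrix-producing progenitors, from 4 dogs, with 1 primary line and 1 RNA library per dog. Every line received the same handling: DMEM containing antibiotics (penicillin and streptomycin), the antifungal fungizone and fetal bovine serum at 10%, and harvest after 48 h in multiwell plates with no added agent. The sources used here do not give breed, age, sex or passage of the cells, and the labels hold 1 group only, so the comparisons possible are between a gene and the rest of its library, and between dogs.

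Both families are core proteins to which long chains of heparan sulfate, an alternating sugar polymer with variable sulfation, are attached in the Golgi. Syndecans span the membrane and end in a short conserved tail that binds the PDZ protein syntenin and the cytoskeleton, and proteases can release their outer part. Glypicans are held by a glycosylphosphatidylinositol anchor, and their globular domain lies close to the membrane. Through their chains both bind growth factors, morphogens, chemokines and matrix proteins, and they act as co-receptors for FGF, Wnt, Hedgehog and BMP ligands. In stromal cells syndecans also work with integrins in adhesion to fibronectin.

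Reads assigned to genes ranged from 7474011 in dog 4 to 22411268 in dog 1. The level of a gene is its deposited log2 value minus the median of the detected genes of the same library, where detected means reads in at least 2 of the 4 libraries. A gene was called above or below when limma placed it more than 1 log2 unit from that median at a Benjamini-Hochberg adjusted p under 0.05 over 17200 tested genes. Values with ± are means and SD over 4 dogs. Of 8 stromal markers 7 were above and NT5E, which encodes CD73, was below at -2.17 ± 0.50. Of 7 measured blood cell markers only CD79A was detected, at 5.31 ± 0.17. Of 5 endothelial markers 0 were above, 2 were below, KDR and VWF were neither, and PECAM1 had 0 reads in every dog. VWF had 380, 62, 214 and 12 reads in dogs 1 to 4, and KDR had 95, 65, 76 and 34. The epithelial marker CDH1 had 0 reads in every dog, while KRT18 had 9, 9, 25 and 435. Deposited values carry no correction for transcript length and no transcript lengths were used here, so a member is compared with itself between dogs and the members are not ranked against each other as amounts of RNA. The calls above and below also set genes of different length side by side, so they describe reads and not amounts of RNA.

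Of the 10 members, 5 passed the test upward, 2 passed it downward, 2 did neither, and GPC5 was not detected. The 5 above were SDC1, SDC2, SDC4, GPC1 and GPC6, and the 2 below were GPC2 and GPC3. Across all tested genes 33.3% were above and 35.8% below. The same 10 members gave 4 above, without GPC6, when the reference was the median of the 13834 genes with reads in all 4 libraries; under that reference 3729 genes in all were above and 7479 below, against 5723 and 6163. In these bulk libraries fewer cells with a transcript and less transcript per cell cannot be told apart.

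**Figure D1:**
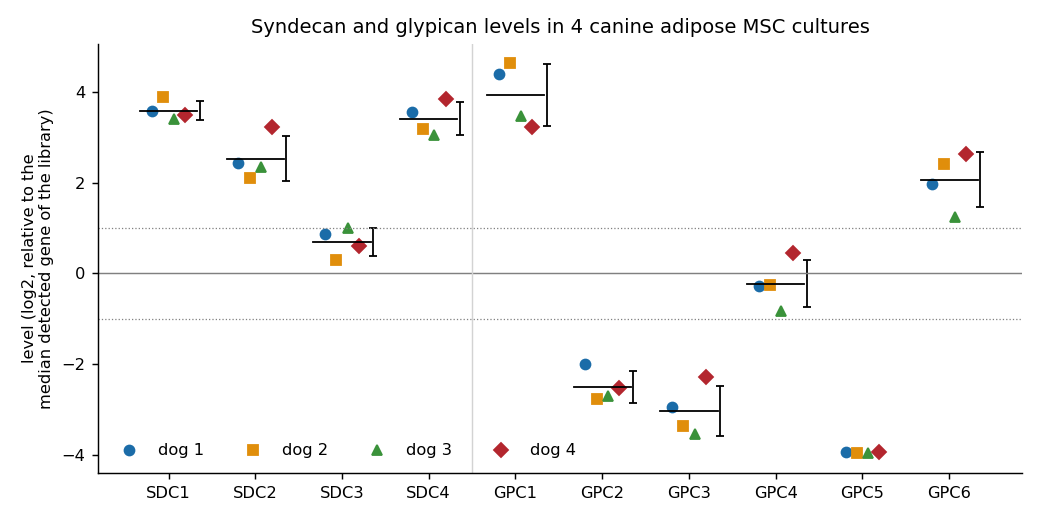
Levels of the 10 members (vertical axis, log2 relative to the median detected gene of the library) in dogs 1 to 4; horizontal bars are means, error bars are SD over 4 dogs, and dotted lines mark 1 log2 unit from the median. SDC1, SDC2, SDC4, GPC1 and GPC6 lie above the upper line in every dog, GPC2 and GPC3 below the lower line, and GPC5 sits at the value of 0 reads.

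SDC1 encodes the syndecan best known from epithelia and plasma cells. It had 2591, 2573, 1761 and 813 reads in dogs 1 to 4, or 1861, 2374, 1681 and 1763 after division by the library size factors. Dog 2 was high, and the other 3 dogs lay close together, with overlapping counting intervals for dogs 1 and 4 and for dogs 4 and 3. The level was 3.59 ± 0.22 (limma, Benjamini-Hochberg adjusted p = 2.48e-08), with 4 of 4 dogs above the median. The SD of 0.22 was the smallest among the 9 tested members and below the 0.25 that the limma trend gives for genes of that level.

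SDC4, the syndecan of focal adhesions, had 2570, 1562, 1382 and 1041 reads in dogs 1 to 4, which correspond to 1846, 1441, 1319 and 2258 normalized reads. Dog 4 was high and dogs 2 and 3 were low, 1.71-fold apart between dog 4 and dog 3. Its level was 3.41 ± 0.36 (limma, Benjamini-Hochberg adjusted p = 1.63e-07), above the median in 4 of 4 dogs.

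SDC2, a syndecan typical of fibroblasts and other mesenchymal cells, had 1166, 732, 831 and 678 reads in dogs 1 to 4. After normalization these were 838, 675, 793 and 1470. Dog 4 stood above the others, 1.76-fold over dog 1, the next highest, and its counting interval of 1362 to 1585 normalized reads did not overlap theirs. The level of SDC2 was 2.53 ± 0.49 (limma, Benjamini-Hochberg adjusted p = 1.39e-05), with 2.44, 2.11, 2.34 and 3.23 in dogs 1 to 4. In the fit without dog 4 the SD was 0.17 and the level 2.06. The reference median was higher in that fit, because detected then meant reads in at least 2 of the remaining libraries.

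SDC3, the large syndecan first described in nerve tissue, was lower in its reads and did not pass the test in either direction. It had 373, 192, 315 and 102 reads in dogs 1 to 4, or 268, 177, 301 and 221 normalized reads, with a level of 0.69 ± 0.31. Dog 2 was lowest and dog 3 highest, and the 95% counting intervals overlapped between neighbours in that order but not between dogs 3 and 2.

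GPC1, a glypican that binds FGF and VEGF ligands, had the largest SD of the 9 tested members. It had 4646, 4288, 1860 and 674 reads in dogs 1 to 4, or 3337, 3957, 1776 and 1462 normalized reads. Dogs 1 and 2 were high and dogs 3 and 4 low, and no counting interval overlapped that of the next dog. Dog 2 exceeded dog 4 by 2.71-fold. The level was 3.93 ± 0.69 (limma, Benjamini-Hochberg adjusted p = 9.2e-07), from 3.22 in dog 4 to 4.63 in dog 2. In RefSeq (assembly UU_Cfam_GSD_1.0, not the build of the deposited table) a protein-coding gene, a non-coding RNA gene and MIR149 overlap GPC1 on chromosome 25. Whether reads were counted by strand is not given.

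GPC6, a glypican of mesenchyme and growth plate cartilage that promotes Hedgehog signalling, had 834, 906, 380 and 446 reads in dogs 1 to 4. The normalized reads were 599, 836, 363 and 967. Dogs 2 and 4 were high, with overlapping counting intervals, dog 1 was between, and dog 3 was lowest, 2.67-fold under dog 4. Its level was 2.07 ± 0.61 (limma, Benjamini-Hochberg adjusted p = 0.000506), and it ranged from 1.25 in dog 3 to 2.64 in dog 4.

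GPC4, which belongs to the same glypican subfamily as GPC6, was neither above nor below at -0.22 ± 0.52. It had 155, 125, 75 and 91 reads in dogs 1 to 4, or 111, 115, 71.6 and 197 normalized reads. As for GPC6, dog 3 was lowest and dog 4 highest, but dogs 1 and 2 were alike. In RefSeq a protein-coding gene overlaps GPC4, and non-coding RNA genes overlap GPC6 and SDC2, so the reads of these members may include those of their neighbours.

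GPC3, an oncofetal glypican that restrains Hedgehog signalling, and GPC2, a glypican of developing neurons, were near the floor. GPC3 had 7, 2, 1 and 7 reads in dogs 1 to 4 and a level of -3.03 ± 0.55 (limma, Benjamini-Hochberg adjusted p = 3.93e-05). GPC2 had 30, 8, 9 and 5 reads and a level of -2.50 ± 0.35 (adjusted p = 0.000166 in the same fit). The counting intervals of neighbouring dogs overlapped for both genes, which is not a test of a difference. Those of dogs 4 and 3 did not overlap for GPC3. For GPC2 those of dogs 1 and 2 barely overlapped, at 14.5 to 30.8 and 3.19 to 14.5 normalized reads. In RefSeq GPC2 overlaps STAG3, which had 0, 0, 3 and 1 reads.

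GPC5, the closest relative of GPC3, had 0 reads in all 4 dogs. That allows up to 0.134, 0.185, 0.197 and 0.401 CPM (counts scaled to 1e6 assigned reads) in the single libraries and 0.0489 over the 61335851 reads of all libraries, set at 3 reads and covering counting error only. GPC5 and GPC6 are next to each other among the protein-coding genes of chromosome 22 in RefSeq, and 1 neighbour was thus without reads while the other was above the median gene. GPC3 and GPC4 lie near each other on chromosome X. Of this pair GPC3 was below the median gene and GPC4 neither.

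**Figure D2:**
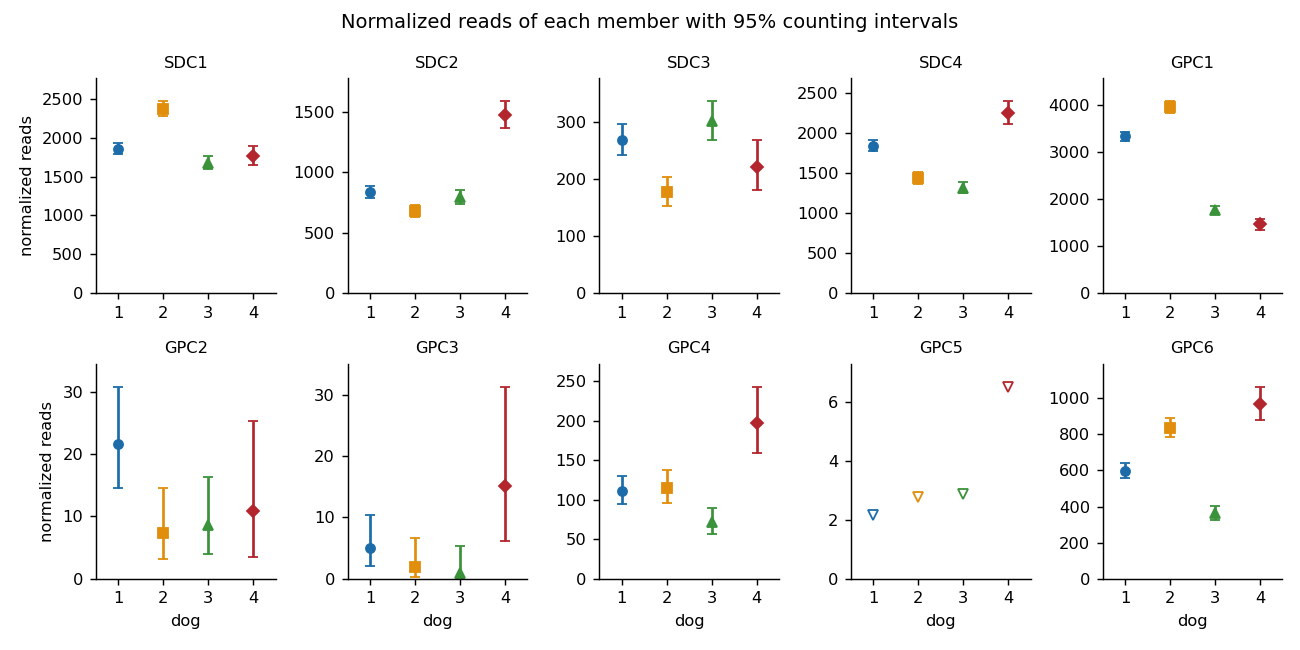
Normalized reads (vertical axis, linear from 0, with a separate scale per gene) of each member in dogs 1 to 4; bars are exact 95% Poisson intervals, which cover counting error only, and open triangles for GPC5 are the limits that 0 reads allow. GPC1 is high in dogs 1 and 2, SDC2 and GPC4 are high in dog 4, and the intervals of GPC2 and GPC3 are wide.

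Of the 9 tested members 5 had their highest level in dog 4 (SDC2, SDC4, GPC3, GPC4 and GPC6), against 36.8% of all tested genes. GPC1 was the only one lowest in dog 4, against 28.8% of all tested genes, and 5 members were lowest in dog 3, against 31.1%. These 5 members kept dog 4 as the highest, and GPC1 kept it as the lowest, in the deposited values, CPM, quantile-normalized values and values thinned to the shallowest library. The lowest dog of SDC1, GPC2 and GPC3 changed with the scaling. Dog 4 was also the shallowest library and differed in markers of other cell types. The summed normalized reads of the 6 smooth muscle and pericyte markers were 117129 in dog 4 and 33393 to 65395 in the others. Most of this was ACTA2 and TAGLN, and the other 4 genes summed to 5576 in dog 4 and 3574 to 5417 elsewhere, with RGS5 at 0 in every dog. The 8 stromal markers summed to 428156 in dog 4 and 695696 to 704524 in the others, mostly through COL1A1. Without COL1A1 dog 4 was highest, at 51796 against 37510 to 47903, through ITGB1, with 32755 in dog 4 and 15017 to 21240 elsewhere. Of the other markers CD44, PDGFRA, PDGFRB and NT5E were each lowest in dog 4, ENG was highest there and THY1 was highest in dog 3. The 4 measured epithelial and mesothelial markers summed to 943 in dog 4 and 20.3 to 26.7 elsewhere, through 435 reads of KRT18 in dog 4, while EPCAM and CDH1 had 0 reads there. The part of these differences in the results for dog 4 was not tested.

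The spread between dogs was set against the limma trend for genes of the same level. No member passed this test after adjustment, nor did any of the 17200 genes (0%). At an unadjusted p under 0.05 stood 2 of the 9 tested members, GPC1 and GPC6, beside 895 genes or 5.2% of all tested. GPC1 had an SD 2.78 times that of the trend (limma, unadjusted p = 0.0164, Benjamini-Hochberg adjusted p = 0.668), and GPC6 one 2.31 times that of the trend (unadjusted p = 0.0379, adjusted p = 0.9). For SDC2 the ratio was 1.92 and for SDC4 1.47. The remaining members lay between 0.63 for GPC2 and 1.26 for GPC4. Leaving out dogs in turn gave SDs of 0.60 to 0.75 for GPC1 and of 0.35, without dog 3, to 0.74 for GPC6. The SD of SDC2 fell from 0.49 to 0.17 without dog 4.

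**Figure D3:**
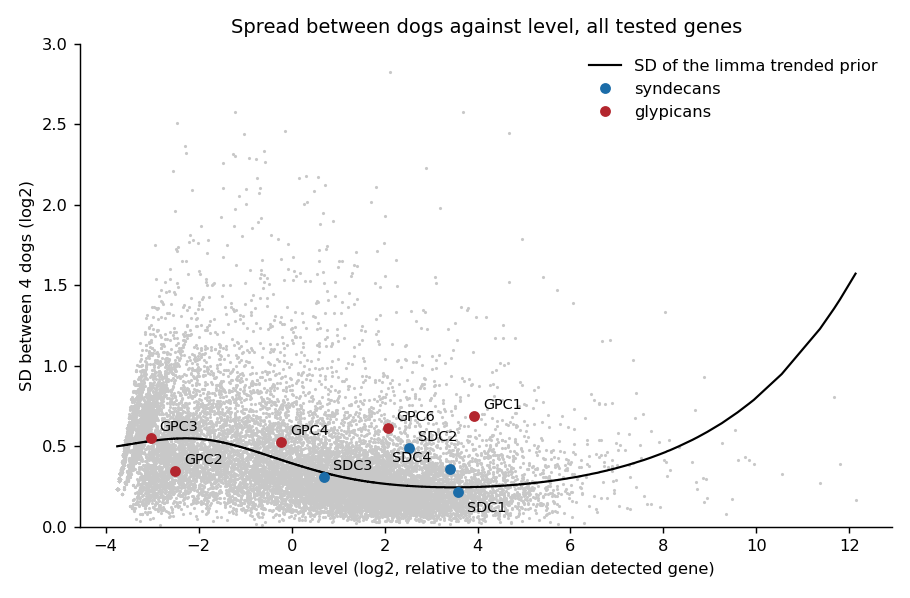
SD between the 4 dogs (vertical axis, log2) against the mean level (horizontal axis, log2 relative to the median detected gene) of all 17200 tested genes in grey, with the 9 tested members in colour and the SD of the limma trended prior as a line. GPC1 and GPC6 lie farthest above the line among the members, and SDC1 lies just below it.

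The balance between members of a family was compared between dogs as a log2 ratio of reads, in which library size and gene length cancel when dogs are compared. Ratios were formed for all 16 pairs of detected members within a family, and 2 of them moved least. SDC2 to SDC4 was -1.14, -1.09, -0.73 and -0.62 in dogs 1 to 4, a range of 0.52. GPC4 to GPC6 was -2.43, -2.86, -2.34 and -2.29, a range of 0.56. These 2 pairs were picked for their small ranges after the values were seen, and no comparison with unrelated genes was made. SDC2 to SDC4 still moved 1.44-fold between dogs, beside 1.71-fold for SDC4 alone.

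The GPC1 to GPC6 ratio was 2.48, 2.24 and 2.29 in dogs 1 to 3 and 0.60 in dog 4. GPC1 made up 81.9%, 80.5% and 80.0% of glypican reads in dogs 1 to 3 and 55.1% in dog 4, with an exact 95% binomial interval of 52.3 to 57.9 in dog 4. The GPC1 intervals of dogs 1 to 3 overlapped one another. GPC6 made up 14.7%, 17.0% and 16.3% in dogs 1 to 3 and 36.5% (33.8 to 39.2) in dog 4, and GPC4 made up 2.73%, 2.35% and 3.23% in dogs 1 to 3 and 7.44% (6.03 to 9.06) in dog 4.

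Among syndecans the SDC1 to SDC4 ratio was 0.01, 0.72, 0.35 and -0.36 in dogs 1 to 4, so dog 2 and dog 4 lay at opposite ends. SDC1 took 50.9% (49.5 to 52.2) of syndecan reads in dog 2 and 30.9% (29.1 to 32.7) in dog 4. SDC2 took 14.5% (13.5 to 15.5) in dog 2 and 25.7% (24.1 to 27.5) in dog 4. Dogs 1 and 3 lay between these values for both genes. Summed over the family, normalized syndecan reads were 4813, 4668, 4094 and 5712 in dogs 1 to 4, a 1.4-fold range. Glypican reads were 4074, 4917, 2220 and 2652, a 2.22-fold range in which dogs 3 and 4 were low.

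**Figure D4:**
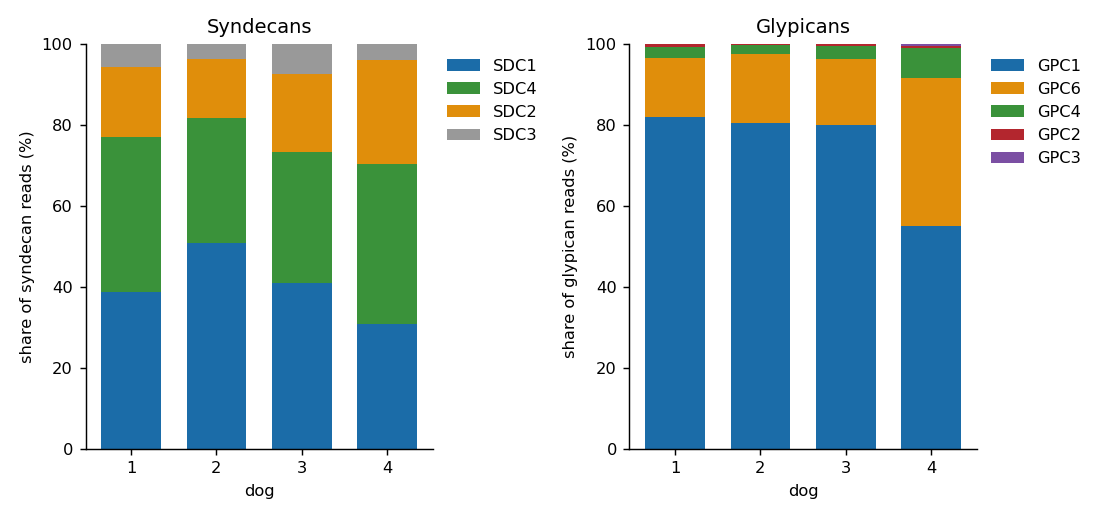
Share of each member in the reads of its family (vertical axis, %, without length correction) in dogs 1 to 4, syndecans on the left and glypicans on the right. The GPC1 share is 80.0% to 81.9% in dogs 1 to 3 and 55.1% in dog 4, and the SDC1 share runs from 30.9% in dog 4 to 50.9% in dog 2.

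For the 2 members with the largest SD, the genes with the nearest pattern over the 4 dogs were sought among 11436 named genes with reads in all libraries. The measure was the root mean square distance between values centred on each gene's own mean. Among the 5 nearest to GPC1 were GCKR (0.09), PHOX2A (0.10), PLA2G12A (0.13) and CAPS (0.13). Nearest to GPC6 were MID1 (0.05), PLLP (0.05), ADA (0.06), ATP1B1 (0.08) and IGDCC4 (0.08). GCKR (-0.72), PHOX2A (-1.98), CAPS (-0.98), MID1 (-1.15) and PLLP (-2.02) had negative levels, where counting error weighs more. No minimum of reads was set beyond reads in all libraries. The 4 points per gene come from the same 4 libraries. Among members with over 50 reads in every dog the nearest pairs were SDC2 with SDC4, SDC4 with GPC4, and GPC4 with GPC6 (each 0.22), and GPC1 and SDC2 were farthest apart (0.95).

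Genes that build, sulfate, edit and release the chains, other carriers, chondroitin polymerization genes, and the ligands, receptors and cytoplasmic partners of the 2 families were described from 11 lists with 123 genes, of which 107 were tested. Calls were 62 above, 22 below and 23 neither, with a median level of 1.85 against -0.02 for all tested genes. Of all tested genes 33.3% were above and 35.8% below. With the median of genes with reads in all 4 libraries as reference, 49 pathway genes were above and 27 below. The lists were written with earlier results of these data known, and these counts describe them only.

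The linker that joins the chain to the core protein is started by xylosyltransferases, and 6 of 9 linker genes were above the median gene with none below. XYLT1 stood at 2.66 ± 0.53, the xylose kinase FAM20B at 2.16 ± 0.31 and the galactosyltransferase B4GALT7 at 2.08 ± 0.15. UGDH, which makes UDP-glucuronic acid, stood at 5.41 ± 0.78. Its reads numbered 13671, 9047, 9040 and 1393 in dogs 1 to 4, and dog 4 had the lowest level. The galactosyltransferase B3GALT6 (-0.38 ± 0.32) and the UDP-xylose synthase UXS1 (0.40 ± 0.23) were neither.

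The polymerase subunits EXT1 and EXT2, which elongate heparan sulfate together, were nearly even between dogs. EXT1 had levels of 3.60, 3.63, 3.55 and 3.58 in dogs 1 to 4 and EXT2 levels of 3.72, 3.83, 3.95 and 3.82. Their SDs of 0.03 and 0.10 lay below that of every core protein gene tested. EXTL3, which starts the chain, was above at 1.87 ± 0.12, EXTL2 was neither at 1.08 ± 0.19, and EXTL1 was below at -3.13 ± 0.95 with 0, 16, 0 and 7 reads. The competing chondroitin polymerization list had 4 of 6 above and none below, with CHPF at 4.20 ± 0.38 and CHSY1 at 3.52 ± 0.21.

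Among the N-sulfotransferases and the 6-O-sulfotransferases, calls differed between genes of the same step. Of 12 measured modification genes 2 were above, 4 below, 2 neither and 4 not detected. The N-deacetylase and N-sulfotransferases NDST1 (3.38 ± 0.16) and NDST2 (1.74 ± 0.33) were above, and NDST4 had 0 reads. The epimerase GLCE (1.19 ± 0.26) and the 6-O-sulfotransferase HS6ST1 (-0.51 ± 0.48) were neither, and HS6ST3 had 0 reads. The 4 below, named after their values were seen, were NDST3, HS6ST2 and the 3-O-sulfotransferases HS3ST3A1 and HS3ST3B1. The 2-O-sulfotransferase and the 3-O-sulfotransferases HS3ST1, HS3ST4 and HS3ST6 were not analysed here under their symbols. The sulfate donor enzymes PAPSS1 (3.54 ± 0.07) and PAPSS2 (3.19 ± 0.27) and the Golgi transporters SLC35B2 (1.94 ± 0.24) and SLC35B3 (1.71 ± 0.19) were above.

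**Figure D5:**
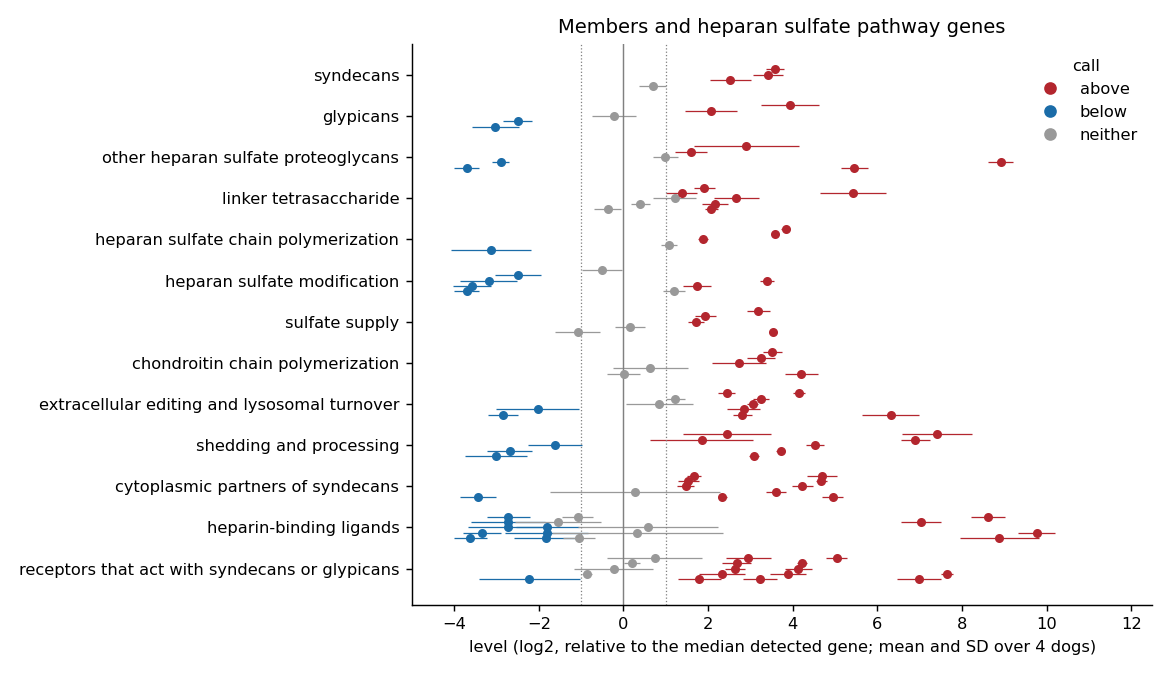
Mean level (horizontal axis, log2 relative to the median detected gene) with SD over 4 dogs for each tested member and pathway gene, 1 row per list, coloured by call (above, below or neither); dotted lines mark 1 log2 unit. The linker, sulfate supply and chondroitin lists hold no gene below, and the modification list has 4.

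Editing and release genes were mostly above the median gene, beside 33.3% of all tested genes. SULF1, an extracellular sulfatase that removes 6-O-sulfates from finished chains, stood at 6.32 ± 0.68. Its levels were 6.55, 6.03, 5.56 and 7.13 in dogs 1 to 4, lowest in dog 3 and highest in dog 4. In contrast, heparanase (HPSE) was below at -2.85 ± 0.35 and HPSE2 had 0 reads. In the editing and turnover list 7 of 12 were above and 2 below. In the shedding and processing list 7 of 11 were above and 3 below. Among these proteases MMP14, which can cleave syndecan ectodomains, stood at 6.90 ± 0.35, ADAM17 at 3.72 ± 0.10 and FURIN, which cleaves glypican precursors, at 4.53 ± 0.20. The lipase NOTUM, which can act on glypicans and Wnt proteins, was below at -2.69 ± 0.53 and named after its values were seen, and MMP7 had 0 reads.

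Of 11 measured cytoplasmic partners of syndecans 9 were above. The syntenin-binding protein PDCD6IP (ALIX) stood at 4.23 ± 0.25, cortactin (CTTN) at 4.68 ± 0.14, ezrin (EZR) at 4.69 ± 0.35 and ARHGDIA at 4.94 ± 0.26, while SDCBP2 was below at -3.44 ± 0.43. Syntenin itself was not analysed here under its symbol SDCBP. Of 17 receptors that act with either family 12 were above and 1, FGFR4, was below at -2.23 ± 1.19. The heparan sulfate-binding phosphatase PTPRS stood at 4.22 ± 0.12, and the integrin chain ITGB5 at 5.04 ± 0.25. Of 17 measured heparin-binding ligands 4 were above and 8 below. The matrix protein tenascin C (TNC) stood at 8.62 ± 0.40, and WNT11 (-3.62 ± 0.40) and SHH (-3.35 ± 0.45) were the lowest.

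Among other carriers of heparan sulfate, agrin (AGRN) was above at 1.60 ± 0.38, with levels of 1.26, 2.07, 1.73 and 1.33 in dogs 1 to 4. It was not above in the fits without dog 2 (1.18) or dog 3 (1.38). In those fits the reference median was also higher, because detected then meant reads in at least 2 of the remaining libraries. Betaglycan (TGFBR3), a TGF-beta co-receptor, had levels of 2.80, 3.11, 4.36 and 1.36 in dogs 1 to 4, highest in dog 3 and lowest in dog 4, with a mean of 2.90 ± 1.23. Of the 8 measured genes of this list 4 were above and 2 below, and SPOCK1 lay at -3.71 ± 0.30.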

How the data were processed

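Total RNA of 4 cultures was sequenced after ribosomal RNA depletion with a stranded kit from 10 ng of RNA, per the labels' protocols. The authors used STAR 2.7.11a, Trimmomatic 0.39, FastQC 0.12.1 and DESeq2 with the build CanFam3.1, per the submitters' processing notes. How reads were counted, by which annotation and whether by strand, is not given in the sources used here. Values were deposited in log2 units after the variance-stabilizing transformation, per the file headers, and do not correct for length. Columns were matched to samples by dog number, and 0 columns were left unused.

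Inverting the transformation from its floor of 3.37 gave whole reads for 100% of values within 0.01 reads. These served for read counts, ratios and exact intervals, and reads without molecular identifiers are not independent molecules. Levels were tested on the deposited log2 values with limma 3.58.1 (R 4.3.3; intercept only, trended prior, distance 1), and the spread by an F test against the trended prior. Both were tried on simulated data. The spreads planted there were larger than those of the members, so the simulation does not show how often spreads like theirs are called. Replicates are separate dogs, so the spread includes culture and library.

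The members and lists were chosen with earlier results of these data known. Named genes were all members, up to 4 highest and 2 lowest of each list, and the 5 genes nearest in pattern to the 2 most variable members; 1 of these is not reported here. For a symbol with several rows the highest mean was used. Pair ratios, family shares and the scaling comparison were chosen after seeing the data. Length-corrected comparisons between members were planned but not made, since no transcript lengths were used here. Alternatives were another reference, 2 other distances, log2 of normalized reads with a pseudocount of 1, quantile normalization, 2 other low-value filters, a prior without trend, thinning to the shallowest library, and leaving out each dog.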

Additional observations from a re-analysis of the deposited data

How the results depend on the processing

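The count of members above (4 or 5) held within 1.5 times under every alternative run, and leaving out any 1 dog left 5 above and 2 below. Across all genes those fits gave 4887 to 5230 above and 5304 to 5749 below. Leaving out a dog also changed which genes counted as detected and raised the reference median. With a distance of 2 log2 units 4 members were above and 1 below, since GPC6 and GPC2 lost their calls. Of all genes 3289 were then above and 4209 below, against 5723 and 6163 in the main fit. Of the pathway genes 46 were above and 13 below, against 62 and 22. With the reference of genes with reads in all 4 libraries 3729 genes were above, and GPC6 lost its call at 1.24. Testing only genes with reads in all 4 libraries left 2830 genes and 10 pathway genes below, and testing every gene of the table gave 19520 below, GPC5 among them. The first filter drops genes detected in only 2 or 3 libraries, and the second adds undetected genes. No named gene changed direction. The spread test called no member under any alternative run. Its unadjusted p for GPC1 was 0.135 with a prior without trend, 0.0972 with every gene tested and 0.0525 without dog 2. For GPC6 it was 0.178 without trend, 0.0978 with every gene, 0.0513 with only genes with reads in all 4 libraries and 0.251 without dog 3. Under the other alternatives both stayed under 0.05. Comparisons of members per unit of length, between families or between neighbours in order, were not run. No paired analysis was possible because the labels give a single group. Depth limits GPC2, GPC3 and GPC5 most, and dog 4, with 7474011 reads, most of all libraries.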

Other observations

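Several pathway genes outside the core proteins stood far apart in dog 4, and all but TIAM1 were named after their values were seen. WNT5A, a Wnt ligand, had levels of -0.47, -0.60, -0.95 and 3.34 in dogs 1 to 4, and FGF7, a heparin-binding growth factor of stromal cells, 0.43, -0.65, -0.42 and 2.96. The protease ADAMTS1, which can cleave syndecan 4, had 1.53, 1.16, 1.06 and 3.65. TIAM1, a Rac exchange factor that binds the tail of syndecan 1, had 354, 346, 595 and 4 reads in dogs 1 to 4. Of the 107 tested pathway genes 13 stood at an unadjusted p under 0.05 in the limma spread test, beside 5.2% of all tested genes, and 0 passed after Benjamini-Hochberg adjustment.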
